A study of Mus musculus with 25 samples.

Results

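The loci described here are the named genes that lie around Ncoa5 on mouse chromosome 2. The rule takes position and symbol and no measured value: every named locus on chromosome 2 of GRCm38 whose listed start lies within about 20 Mb to either side of Ncoa5, apart from Ncoa5 itself and 16 other loci left out by their symbols. This gave 882 of the 46499 loci listed for the younger cohort and 882 of the 46052 listed for the older one. The livers came from 25 C57BL/6 mice. The younger cohort, killed at 20 weeks, held 4 untreated Ncoa5+/- mice and 4 untreated wild-type mice. The older cohort, killed at 39 weeks, held 5 Ncoa5+/- and 4 wild-type mice without treatment, and 5 Ncoa5+/- and 3 wild-type mice that drank metformin, an oral drug for type 2 diabetes, at about 250 mg per kg per day from 8 weeks of age on. Each library is whole liver RNA from 1 mouse, the libraries of each age were prepared at a different site, and age and library site cannot be told apart, so values are compared only within an age. How the Ncoa5 allele was made, and from which strain's cells, is not given in the sources used here.

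Ncoa5 encodes a coregulator of nuclear receptors, proteins that switch genes on or off when they bind a hormone or metabolite. Mice with a single intact copy are known as a model of glucose intolerance and liver cancer. Genes near a targeted allele are of interest in any such model because they travel with the allele when mice are bred: heterozygous and wild-type littermates can differ in the linked stretch of the chromosome as well as in the targeted gene. The window around Ncoa5 holds liver genes of many kinds, among them Hnf4a, a master regulator of hepatocyte identity, Ahcy and Gss, enzymes of sulfur amino acid and glutathione metabolism, Gnas, an imprinted gene for a G-protein subunit, and Sulf2, an enzyme that trims sulfate groups from heparan sulfate at the cell surface.

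The promoters of 4 members are shown because these members carry the results below: Sulf2 was the member past the threshold, Gss and Ahcy were next to it in p, and Srxn1 had the third smallest p among mice on metformin. Each line gives the 250 bases upstream of a RefSeq transcription start (GRCm38.p6), 5′ to 3′ on the gene's own strand. In the first 3, capitals mark CpG dinucleotides, the sites of DNA methylation. In the last, capitals mark the letters TGAGTCA, which factors of the AP-1 family can recognise.
Sulf2, minus strand, chr2:166155684-166155933: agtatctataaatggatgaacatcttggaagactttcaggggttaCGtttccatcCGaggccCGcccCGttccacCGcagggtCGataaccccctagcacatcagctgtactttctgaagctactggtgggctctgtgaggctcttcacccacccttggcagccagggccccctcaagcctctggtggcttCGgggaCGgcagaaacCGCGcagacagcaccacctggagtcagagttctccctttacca
Ahcy, minus strand, chr2:155074498-155074747: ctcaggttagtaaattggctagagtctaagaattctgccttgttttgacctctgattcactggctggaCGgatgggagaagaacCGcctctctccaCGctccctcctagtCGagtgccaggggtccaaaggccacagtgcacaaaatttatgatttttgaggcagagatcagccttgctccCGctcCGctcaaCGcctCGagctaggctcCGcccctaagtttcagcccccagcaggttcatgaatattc
Gss, minus strand, chr2:155592811-155593060: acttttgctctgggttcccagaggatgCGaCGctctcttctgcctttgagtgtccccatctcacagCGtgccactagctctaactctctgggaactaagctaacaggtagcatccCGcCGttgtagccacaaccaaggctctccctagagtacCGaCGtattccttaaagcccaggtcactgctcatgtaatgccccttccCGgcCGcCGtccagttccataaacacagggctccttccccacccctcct
Srxn1, plus strand, chr2:152105274-152105523: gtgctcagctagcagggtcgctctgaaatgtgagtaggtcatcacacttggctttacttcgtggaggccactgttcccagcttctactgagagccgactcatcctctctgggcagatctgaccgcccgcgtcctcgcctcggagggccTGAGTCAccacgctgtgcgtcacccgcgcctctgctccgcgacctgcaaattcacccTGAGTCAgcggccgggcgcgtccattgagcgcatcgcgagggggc
The Sulf2, Ahcy and Gss windows hold 10, 9 and 10 CpGs, and that of Srxn1 holds 21. The median was 14 over the 272 promoters of the tested members that RefSeq lists for 190 of their symbols, and 6 over all 32851 promoters of the same length. The letters TGAGTCA, read on either strand, start at -102 and -45 from the Srxn1 start. They occur in 7 of the 272 member promoters (2.57%) and in 4.46% of all promoters. The other motif searched on both strands, TGACNNNGC, is in none of these 4 windows, in 17.6% of the member promoters and in 10.2% of all. The member promoters belong to loci that passed a filter on their level in liver, and the full set was not filtered. These CpG and motif figures therefore do not compare the window alone with the genome. A second start listed for Sulf2 lies inside its annotated gene and is not shown.

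The values are FPKM, fragments per length of transcript and per number of mapped fragments, as the authors normalised them with Cuffnorm. They hold no read counts, so counting error cannot be given; 18930 to 22259 loci per library were above 0. The 50 highest loci took 43.0% to 78.7% of a library's FPKM sum, and over 70% in 3 libraries: wild-type replicate 4 at 20 weeks, untreated Ncoa5+/- replicate 3 and metformin Ncoa5+/- replicate 5 at 39 weeks. Ncoa5 itself, read over the whole gene, did not separate the labelled genotypes. It averaged 4.01 ± 0.94 FPKM (SD, n = 4) in wild-type and 3.85 ± 0.88 (SD, n = 4) in Ncoa5+/- livers at 20 weeks. At 39 weeks, over both treatments, its log2 fold change was -0.20 with a standard error of 0.11 (limma adjusted p = 0.872). Genotypes below are therefore those of the labels. Of 9 defining hepatocyte markers, 7 were kept at 20 weeks and 6 at 39 weeks. A marker that was unmatched, or at 0 throughout a group though present elsewhere, was left out. Of those kept, Alb and Serpina1a were listed at 0 in every mouse and Apoa1 in every mouse at 20 weeks. The others, Apob, Cps1, Ass1 and Fgb, summed to 3279 to 6037 FPKM per mouse. A listed 0 in these files can be a failed estimate.

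Most members were little used by the liver. At 39 weeks 368 of the 882 members were listed at 0 in every mouse, 124 averaged 1 to 10, 99 averaged 10 to 100, 14 averaged 100 or more, and the rest averaged under 1 FPKM. Members averaging at least 1 FPKM in a cohort were tested: 219 of 10963 tested loci at 20 weeks and 237 of 11441 at 39 weeks, of which 188 and 209 code for proteins. Because the filter uses the mean of all mice of a cohort, a member could pass it through 1 group in which it is high.

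The genotype differences of the members were about as large as those of the rest of the genome. At 20 weeks the median absolute log2 fold change, Ncoa5+/- over wild type, on the scale of log2(FPKM + 1), was 0.158 over the 219 members and 0.174 over all loci. In untreated mice of 39 weeks it was 0.091 for the members and 0.088 for all loci, and on metformin 0.076 and 0.083. Across both treatments at 39 weeks, in 1 model that adjusts for metformin, it was 0.067 for the members and 0.062 for all loci. The signed medians were 0.007, -0.031, -0.006 and -0.018 for the members in the same order, against 0.028, -0.017, -0.006 and -0.012 for all loci. In the comparison across both treatments 95 members were higher and 142 lower in Ncoa5+/- livers, a share of 40.1% higher against 44.0% for all loci. The members share a stretch of chromosome and the same libraries, so these shares are descriptions without a test.

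**Figure D1:**
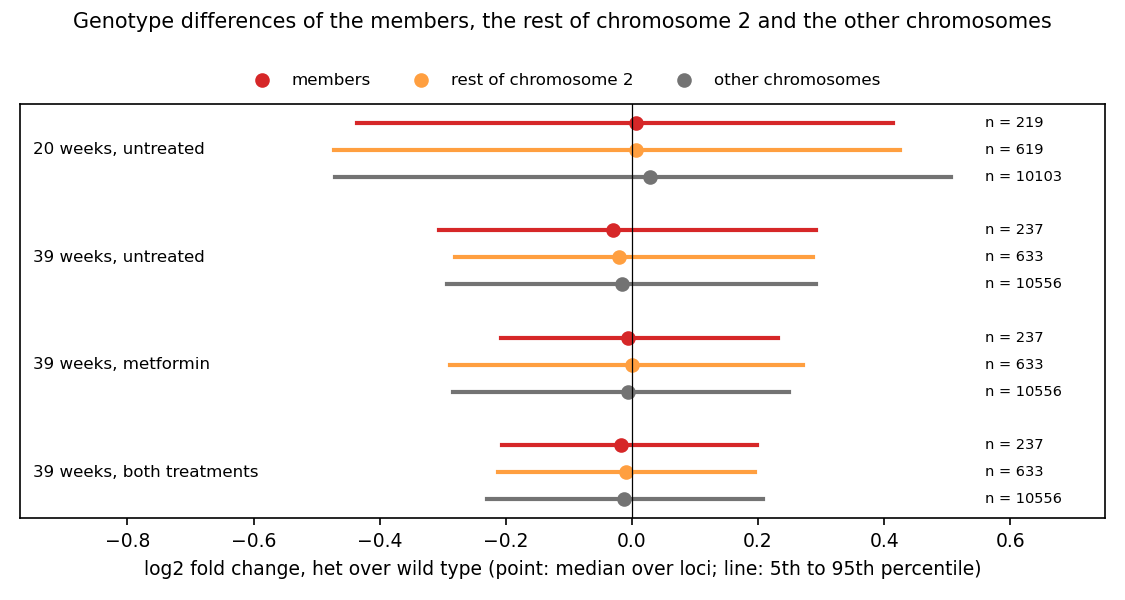
Log2 fold change, Ncoa5+/- (het) over wild type (x axis), in 4 comparisons; points are medians over loci and lines run from the 5th to the 95th percentile, for the members (red), the rest of chromosome 2 (orange) and the other chromosomes (grey). The members' medians lie between -0.031 and 0.007, and their lines overlap those of both other sets throughout.

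With limma and Benjamini-Hochberg adjustment over all tested loci, no member passed an adjusted p of 0.05 at 20 weeks, and neither did any other locus (0%). An unadjusted p under 0.05 was reached by 12 of 219 members (5.48%) against 7.48% of all loci. In untreated mice of 39 weeks 0 members passed, against 30 of all 11441 loci (0.262%), and 17 members had an unadjusted p under 0.05 (7.17% against 5.62%). On metformin 0 members passed, against 18 of all loci (0.157%), and 10 had an unadjusted p under 0.05 (4.22% against 4.35%). Across both treatments 1 member passed, Sulf2, against 59 of all loci (0.516%), and 21 members had an unadjusted p under 0.05 (8.86% against 6.2%), 10 of them higher and 11 lower, where 3.02% and 3.18% of all loci were.

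Sulf2, listed with the span of its neighbour Ncoa3, was the one member called. By GENCODE it lies at chr2:166073089-166155663 on the minus strand, 1.07 Mb from Ncoa5, and its last bases overlap the end of Ncoa3 at 166073242 on the other strand. Whether the libraries keep strand is not given in the sources used here, so reads from that shared stretch cannot be told apart. In untreated wild-type livers of 39 weeks it measured 5.04, 2.95, 5.34 and 6.52 FPKM, and in untreated Ncoa5+/- livers 14.2, 8.01, 7.02, 5.71 and 11.8. All Ncoa5+/- mice but the one at 5.71 stood above every wild-type mouse. On metformin the wild-type livers measured 2.10, 2.48 and 2.04, and the Ncoa5+/- livers 7.04, 3.98, 4.08, 5.43 and 9.58. These groups did not overlap: the lowest Ncoa5+/- value was above the highest wild-type value. The log2 fold change was 0.77 (SE 0.26, limma adjusted p = 0.612) untreated, 1.07 (SE 0.28, adjusted p = 0.413) on metformin, and 0.92 (SE 0.19, adjusted p = 0.0436) across both.

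At 20 weeks Sulf2 did not separate the genotypes. Ncoa5+/- livers measured 3.75, 2.48, 2.40 and 1.72 FPKM and wild-type livers 3.39, 2.19, 3.33 and 2.43. The wild-type range lay inside the Ncoa5+/- range, with a log2 fold change of -0.11 (SE 0.19, limma adjusted p = 0.824). Whether the difference itself changed with age was not tested, since the ages were prepared and normalised apart. The call at 39 weeks was also close to its threshold: with each of the 17 mice left out in turn the fold change stayed between 0.83 and 0.99, but the adjusted p ran from 0.0250 to 0.144 and stayed under 0.05 in 4 of the 17 fits, those without untreated wild-type replicate 4, untreated Ncoa5+/- replicate 4, or metformin Ncoa5+/- replicate 2 or 3. Without the libraries over 70% in their 50 highest loci it was 0.0699.

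Sulf2 is made by several liver cell types, so the summed markers of the other cell types of the tissue were set beside it. Over the 7 sinusoidal endothelial markers the median of the summed level was 112 FPKM (85.3 to 122) in untreated wild-type and 111 (45.5 to 117) in untreated Ncoa5+/- livers, and 111 (99.9 to 117) and 114 (110 to 122) on metformin. Of 7 stellate cell and fibroblast markers, 6 were kept under the rule given for the hepatocyte markers. The median of their summed level was 64.0 (55.4 to 74.97) and 68.7 (48.7 to 74.3) untreated, and 79.7 (72.9 to 82.6) and 81.2 (72.7 to 90.9) on metformin. The 8 Kupffer cell and macrophage markers had medians of 158 and 153 untreated, and 198 and 176 on metformin. None of these markers was at 0 in every mouse, and the ranges of the 2 genotypes overlapped in each list at 39 weeks. The part of these cell types in the Sulf2 result was not tested. In bulk tissue, fewer cells of a type and less RNA per cell cannot be told apart.

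Gss, the enzyme of the last step of glutathione synthesis (GENCODE chr2:155563181-155592810), was higher on average in Ncoa5+/- livers in all 3 groups of mice without passing the threshold in any. At 20 weeks wild-type livers measured 36.2, 36.5, 30.6 and 33.1 FPKM and Ncoa5+/- livers 49.5, 37.5, 55.0 and 48.2. These groups did not overlap, though one Ncoa5+/- mouse was within 1 FPKM of the highest wild-type mouse. At 39 weeks untreated wild-type livers measured 34.3, 52.5, 43.4 and 37.9, and Ncoa5+/- livers 52.8, 79.95, 63.1, 54.0 and 47.4. On metformin wild-type livers measured 46.2, 35.6 and 46.0, and Ncoa5+/- livers 65.8, 56.8, 60.2, 51.2 and 45.0. In each of the older groups 1 Ncoa5+/- mouse fell within the wild-type range. The log2 fold changes were 0.46 (SE 0.14, adjusted p = 0.603) at 20 weeks, 0.48 (SE 0.16, adjusted p = 0.526) untreated and 0.38 (SE 0.17, adjusted p = 1) on metformin at 39 weeks, and 0.43 (SE 0.12, adjusted p = 0.183) across both treatments, all by limma.

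Ahcy, which hydrolyses S-adenosylhomocysteine and so keeps methylation reactions running, was the most abundant metabolic member and was lower on average in Ncoa5+/- livers in the same 3 comparisons. It lies 9.94 Mb from Ncoa5 at chr2:155059310-155074497, minus strand. In untreated mice of 39 weeks wild-type livers measured 628, 667, 729 and 776 FPKM and Ncoa5+/- livers 501, 601, 490, 556 and 547, so that the groups did not overlap. On metformin wild-type livers measured 583, 582 and 554 and Ncoa5+/- livers 521, 421, 533.1, 597 and 463. One Ncoa5+/- mouse, at 597, was above all wild-type mice there. At 20 weeks the wild-type livers were widely spread, at 526.4, 201, 785 and 567, and the Ncoa5+/- livers measured 285, 310, 186 and 186. The log2 fold changes were -0.98 (SE 0.40, adjusted p = 0.603) at 20 weeks, -0.38 (SE 0.10, adjusted p = 0.257) and -0.19 (SE 0.11, adjusted p = 1) at 39 weeks, and -0.28 (SE 0.07, adjusted p = 0.151) across both treatments, by limma. The difference at 20 weeks was -0.47 without wild-type replicates 3 and 4, and that on metformin ran from -0.25 to -0.12 with single mice left out.

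**Figure D2:**
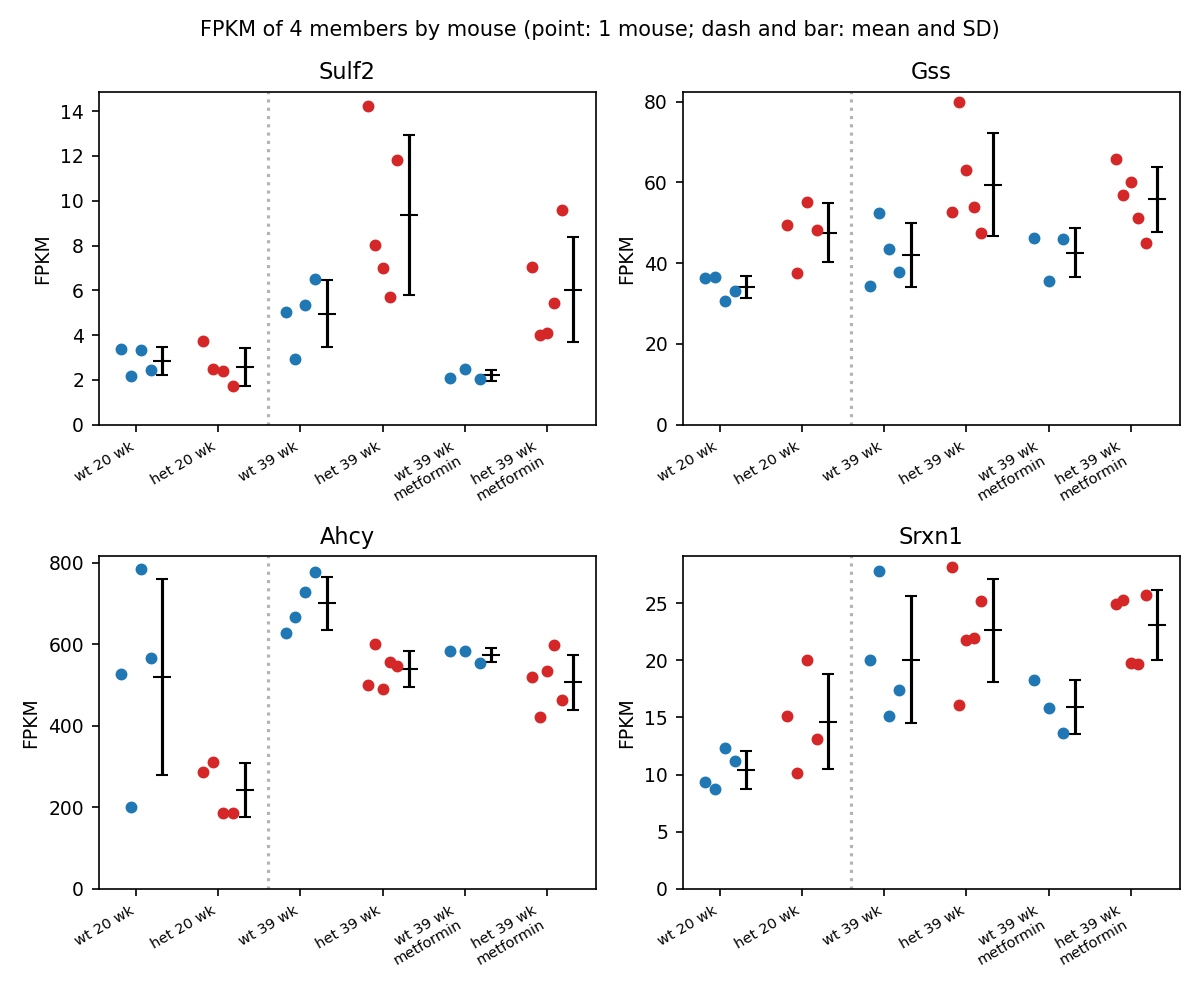
FPKM (y axes, from 0) of Sulf2, Gss, Ahcy and Srxn1 in each mouse, by age, genotype and treatment; points are mice (blue wild type, red Ncoa5+/-), and dashes with bars are means with SD. The 5 metformin Ncoa5+/- mice lie between 3.98 and 9.58 for Sulf2, above the wild-type mice at 2.04 to 2.48, while the groups at 20 weeks overlap.

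The 6 tested members nearest to Ncoa5 did not pass the test in any genotype comparison. Pcif1, which adds a methyl group beside the mRNA cap, averaged 17.5 ± 3.2 FPKM (SD, n = 4) in untreated wild-type and 17.2 ± 2.2 (SD, n = 5) in untreated Ncoa5+/- livers, with a log2 fold change of -0.07 across both treatments. Zfp335, a zinc-finger regulator of transcription, averaged 3.82 and 3.74 in the same groups, and its antisense neighbour Zfp335os 0.90 and 1.13; without strand the overlapping part of this pair cannot be told apart. Neurl2, a ubiquitin ligase adaptor, averaged 1.79 and 2.14. Pltp, which moves phospholipids between lipoproteins, averaged 95.9 ± 47 and 70.6 ± 24, with a log2 fold change of -0.21 (SE 0.27, limma adjusted p = 0.984) across both treatments and -0.42 to -0.08 with single mice left out, at the ends without metformin wild-type replicates 3 and 2. Ctsa, a lysosomal carboxypeptidase, was the nearest member whose groups did not overlap in a comparison: on metformin it averaged 86.3 ± 4.9 FPKM (SD, n = 3) in wild-type and 71.5 ± 9.3 (SD, n = 5) in Ncoa5+/- livers (log2 fold change -0.28, SE 0.10, limma adjusted p = 0.928), while the untreated groups averaged 72.01 and 74.1.

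Distance from Ncoa5 was only weakly related to the size of the genotype differences. Spearman's rho between distance and absolute log2 fold change was -0.13 over the 219 members at 20 weeks, and -0.05, -0.10 and -0.13 over the 237 members at 39 weeks untreated, on metformin and across both. These points share libraries, and short or low loci are noisier than others. The 24 tested members listed within 1 Mb had a median absolute log2 fold change of 0.109 across both treatments, against 0.086, 0.043, 0.088 and 0.054 in the bins of 1 to 5, 5 to 10, 10 to 15 and 15 to 20 Mb. Of those 24, 8 were higher and 16 lower, and 4 had an unadjusted p under 0.05: Sulf2, and the lower Sdc4, Wfdc2 and Slc13a3. Over all loci 44.0% were higher and 6.2% had such a p. In the separate comparisons at 39 weeks such a p was reached by 4 of the 24 untreated (16.7% against 5.62% of all loci). On metformin it was reached by 3 of the 24 (12.5% against 4.35%). Sulf2 falls in this bin by the listed span only, since its own start lies at 1.07 Mb. At 20 weeks 0 of the 21 nearest members had an unadjusted p under 0.05, and their median of 0.147 was below that of all loci.

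**Figure D3:**
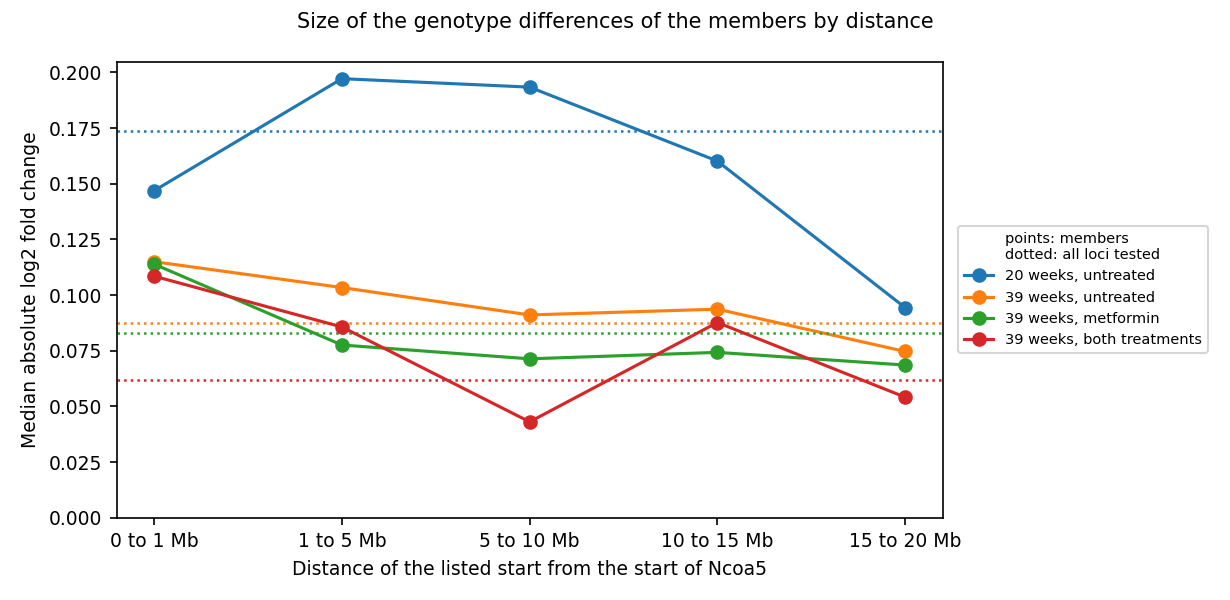
Median absolute log2 fold change, Ncoa5+/- over wild type (y axis, from 0), of the members by distance from Ncoa5 (x axis), in 4 comparisons; dotted lines give the median over all loci tested. At 39 weeks the bin nearest to Ncoa5 is highest, at 0.109 to 0.115, and at 20 weeks it is not, at 0.147.

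**Figure D4:**
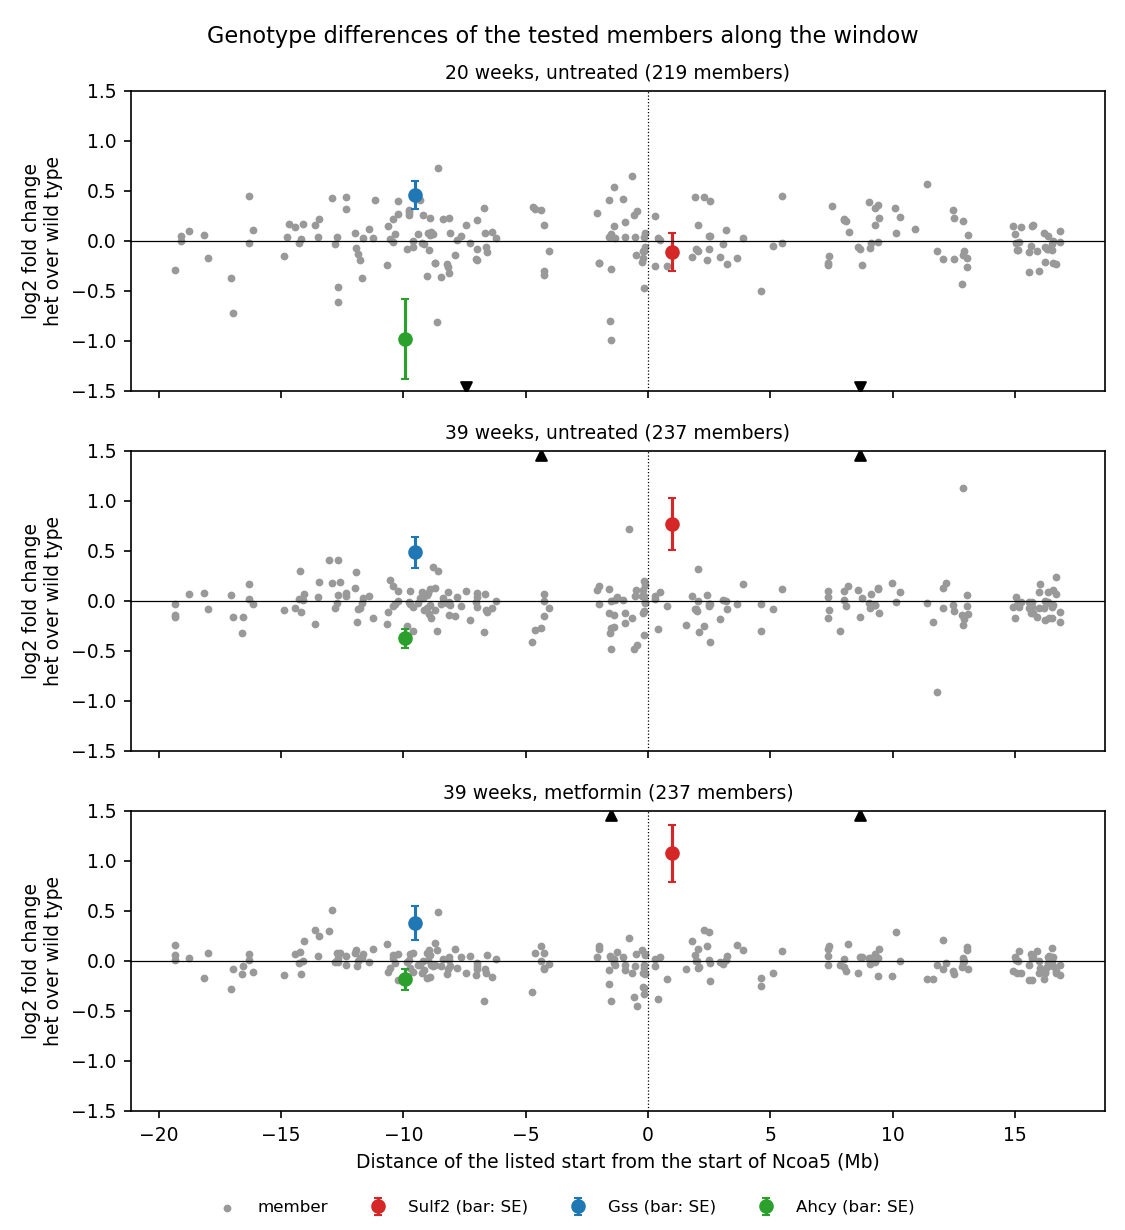
Log2 fold change, Ncoa5+/- over wild type (y axis), of each tested member against its distance from Ncoa5 (x axis, Mb), in 3 comparisons that share no mice; coloured points with standard errors are Sulf2, Gss and Ahcy, and black triangles are the 2 members per panel beyond 1.5, all of them short RNAs. Both sides of Ncoa5 scatter around 0, and Sulf2 is at -0.11 at 20 weeks and at 0.77 and 1.07 at 39 weeks.

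The 3 genotype comparisons share no mice, so a repeated shift can be read across them. Of 206 members tested at both ages, 60 had the same sign in all 3 (29.1%), against 25.7% of 9866 matched loci. In 22 of these the Ncoa5+/- livers were higher and in 38 lower. No member's groups were without overlap in the same direction in all 3 comparisons, against 4 of 9866 loci (0.0405%), and none in both comparisons at 39 weeks, against 56 of 11441 loci (0.489%). Taken singly, 5 members did not overlap at 20 weeks (2.28% against 4.02% of all loci), 5 in untreated mice of 39 weeks (2.11% against 1.81%) and 7 on metformin (2.95% against 3.72%). Spearman's rho between the untreated and metformin fold changes was 0.14 over the 206 members and 0.08 over all matched loci. Between 20 weeks and 39 weeks it was 0.10 untreated and -0.06 on metformin for the members, and 0.08 and -0.008 for all matched loci.

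At 20 weeks the 5 members without overlap were all higher in Ncoa5+/- livers, as were 325 of the 441 such loci in the whole table. Besides Gss these were Pigu, a subunit of the complex that attaches GPI anchors to proteins, Gid8, a subunit of a ubiquitin ligase, Vamp7-ps, a pseudogene, and Gm14435, a locus that RefSeq lists as the zinc-finger pseudogene Zfp968-ps. GENCODE types Gm14435 as protein coding, and it was counted so here. Pigu measured 8.10, 9.04, 7.36 and 7.39 FPKM in wild-type and 9.78, 10.4, 9.39 and 10.8 in Ncoa5+/- livers (log2 fold change 0.31, SE 0.10, limma adjusted p = 0.603). At 39 weeks it averaged 8.58 and 9.18 untreated and 9.003 and 9.51 on metformin, and both pairs of groups overlapped. Vamp7-ps averaged 11.0 in wild-type and 14.7 in Ncoa5+/- livers at 20 weeks (log2 fold change 0.38, SE 0.11), but 4.04 and 4.07 in untreated mice of 39 weeks. Gm14435 averaged 3.57 and 5.80 at 20 weeks (0.57, SE 0.17) and stood at 3.50 and 3.42 at 39 weeks; reads of such zinc-finger copies can be split among near-identical neighbours. Cse1l, a nuclear export factor for importin alpha, had the next smallest p, at 9.74 against 13.5 FPKM (0.43, SE 0.17, adjusted p = 0.603) with overlapping groups. The summed erythroid markers also did not overlap at 20 weeks, at 263 to 346 FPKM in Ncoa5+/- and 222 to 260 in wild-type livers, and their part in these differences was not tested.

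In untreated mice of 39 weeks the members without overlap were Ahcy, Hnf4aos, Bmp7 and Rab22a, all lower, and Pygb, which was higher. Bmp7, a secreted growth factor, measured 1.95, 1.97, 1.86 and 1.83 FPKM in wild-type and 1.36, 1.2, 1.48, 1.23 and 1.56 in Ncoa5+/- livers (log2 fold change -0.30, SE 0.09, limma adjusted p = 0.431). It is close to the filter, and on metformin both genotypes were near 1.2 (1.22 and 1.16). Itch, a ubiquitin ligase, averaged 14.1 ± 1.8 (SD, n = 4) and 11.7 ± 1.1 (SD, n = 5) untreated (-0.25, SE 0.09, adjusted p = 0.658) and 11.8 and 11.6 on metformin. On metformin the higher members without overlap were Sulf2, Srxn1, Fam110a, Arfgef2 and Slc9a8, and the lower ones Ctsa and 9030622O22Rik. Arfgef2, an exchange factor of Golgi traffic, averaged 7.98 and 9.32 (0.20, SE 0.08, adjusted p = 0.968), and Slc9a8, a sodium-proton exchanger of the Golgi, 9.05 and 10.2 (0.15, SE 0.06, adjusted p = 1). Gid8, Rab22a, Pygb, Fam110a, 9030622O22Rik, Wfdc2 and Slc13a3 are named because their values stood out, not by the rule for named genes.

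**Figure D5:**
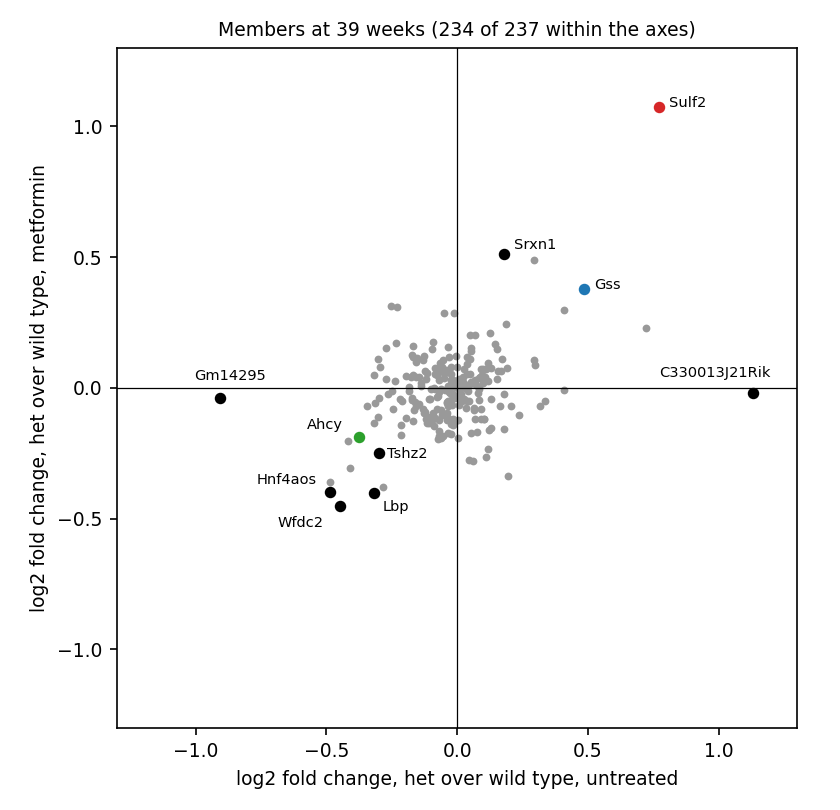
Log2 fold change, Ncoa5+/- over wild type, at 39 weeks untreated (x axis) against metformin (y axis); each point is a member, 234 of 237 lie within the axes, and named members are marked. Sulf2 stands apart at 0.77 and 1.07, while Gm14295 and C330013J21Rik differ in untreated mice only, through 1 and 2 mice.

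By role, no transcription regulator of the window passed the test. Of 21 tested, 8 were higher and 13 lower across both treatments at 39 weeks, 0 of them past the threshold (0.516% of all loci were), with a median log2 fold change of -0.05. Hnf4a, which holds the hepatocyte program in place, averaged 198 ± 80.5 FPKM (SD, n = 4) in untreated wild-type and 157 ± 29 (SD, n = 5) in untreated Ncoa5+/- livers, and 174 and 177 on metformin (log2 fold change across both -0.12, SE 0.16, limma adjusted p = 0.984). With single mice left out this ran from -0.20 to -0.0033, the latter without untreated wild-type replicate 2. Its antisense RNA Hnf4aos measured 10.2, 11.2, 12.7 and 11.6 in untreated wild-type and 8.58, 6.40, 8.74, 8.06 and 7.64 in untreated Ncoa5+/- livers. On metformin it measured 11.4, 11.9 and 7.88 against 5.90, 6.90, 5.76, 13.4 and 7.47, where Ncoa5+/- replicate 4 was above all wild-type mice. Its log2 fold change across both was -0.44 (SE 0.14, adjusted p = 0.325), and -0.54 with an adjusted p of 0.00820 without that mouse; the other 16 fits that leave out 1 mouse missed the threshold, with adjusted p up to 0.672. Hnf4aos overlaps Hnf4a on the other strand, and without strand the 2 cannot be fully told apart. Cebpb, a regulator of the acute-phase response, averaged 181 ± 107 and 122 ± 28 untreated (across both -0.31, SE 0.22, adjusted p = 0.965, and -0.13 without untreated wild-type replicate 2). Gmeb2, which binds glucocorticoid-modulatory elements, and Zmynd8, a chromatin reader, had log2 fold changes of -0.16 (SE 0.06, adjusted p = 0.62) and -0.12 (SE 0.07, adjusted p = 0.945).

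Tshz2, a developmental zinc-finger repressor, was lower on average in Ncoa5+/- livers in all 3 comparisons. At 39 weeks it measured 5.24, 4.73, 4.30 and 5.49 FPKM in untreated wild-type and 3.57, 3.09, 5.16, 3.31 and 4.20 in untreated Ncoa5+/- livers, and 5.59, 5.74 and 4.86 against 4.43, 4.22, 3.87, 4.30 and 5.12 on metformin. The genotypes overlapped through 1 mouse in each group of Ncoa5+/- livers, and both of these are libraries with over 70% of their FPKM in 50 loci. The log2 fold change across both was -0.27 (SE 0.08, limma adjusted p = 0.296), and -0.34 with an adjusted p of 0.0442 without those libraries, the very mice that overlap. It missed the threshold in all 17 fits that leave out 1 mouse (adjusted p 0.0651 to 0.619) and in the 8 other alternatives run. At 20 weeks it measured 1.16, 0.77, 2.65 and 2.40 FPKM in wild-type and 1.18, 0.92, 0.72 and 0.66 in Ncoa5+/- livers. The averages there, 1.75 and 0.87, differed mainly through wild-type replicates 3 and 4. The remaining values of both genotypes overlapped and lay near the filter of 1 FPKM.

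Of the 22 tested members for metabolism and redox, 11 were higher and 11 lower across both treatments, 0 past the threshold and 5 with an unadjusted p under 0.05, where 6.2% of all loci had one, with a median of 0.00. The list was drawn up with earlier results of these data known, so its share is a description only. Srxn1, which repairs overoxidised peroxiredoxins, measured 18.3, 15.8 and 13.6 FPKM in wild-type and 24.9, 25.3, 19.8, 19.7 and 25.7 in Ncoa5+/- livers on metformin, without overlap (log2 fold change 0.51, SE 0.19, limma adjusted p = 0.945). Untreated, it measured 20.0, 27.8, 15.1 and 17.4 against 28.1, 16.1, 21.8, 21.98 and 25.2, with overlapping groups. Across both the fold change was 0.34 (SE 0.13, adjusted p = 0.546), and at 20 weeks it averaged 10.4 and 14.6. Slc13a3, a carrier of dicarboxylates, averaged 4.51 and 3.53 untreated and 4.08 and 2.93 on metformin (across both -0.33, SE 0.11, adjusted p = 0.375). Romo1, a mitochondrial regulator of reactive oxygen, was at 225 ± 7.8 and 245 ± 26 untreated and 270 ± 25 and 241 ± 8.7 on metformin.

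The secretory and lysosomal members were evenly divided, 10 higher and 13 lower of 23 tested, with 0 past the threshold and a median of -0.01. Cst3, the secreted protease inhibitor cystatin C, averaged 243 ± 19 and 237 ± 25 untreated and 262 ± 29 and 241 ± 12 on metformin (across both -0.08, SE 0.06, limma adjusted p = 0.977). Ctsz, a lysosomal protease, averaged 161 and 177 untreated and 187 and 169 on metformin. The locus listed jointly as Adnp, Dpm1 and Gm20716 averaged 154 in both untreated groups. Of the autophagy, ubiquitin and translation list 8 of 19 were higher and 11 lower, 0 past the threshold. Its most abundant single genes were Eif2s2, a subunit of an initiation factor, at 58.2 and 62.4 untreated, and Map1lc3a, an autophagosome protein, at 58.5 and 57.3. The joint locus of Gm20431, Tmem189 and Ube2v1 averaged 69.5 and 67.9, and Stk4, a kinase of the Hippo pathway, 4.14 and 3.44.

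No cell division gene passed the test: 4 of 9 tested were higher and 5 lower across both treatments, 0 past the threshold, out of 16 listed, so that 7 were too low to test. Top1, a topoisomerase, averaged 17.5 and 14.1 untreated and 13.7 and 15.1 on metformin, Rae1, an mRNA export factor, 11.6 and 11.7 untreated, and E2f1, a regulator of S-phase entry, 1.97 and 2.31 untreated (across both 0.09, SE 0.07, limma adjusted p = 0.974). The joint locus Nanp and Ninl averaged 2.16 and 2.32. Of 17 RNA processing members 5 were higher and 12 lower across both treatments, 0 past the threshold, where 44.0% of all loci were higher. Untreated, 4 were higher and 13 lower, and on metformin 10 were higher and 7 lower. Rbm39, a splicing factor, averaged 50.1 ± 6.6 and 44.1 ± 1.9 untreated (across both -0.11, SE 0.06, adjusted p = 0.881), and Srsf6, another, 30.2 and 32.6 (0.07, SE 0.05, adjusted p = 0.965). The joint loci of Raly with the agouti gene a, and of Cpne1, Gm28036, Nfs1 and Rbm12, averaged 56.5 and 56.8, and 50.2 and 48.8. The 4 tested imprinted members, 3 higher and 1 lower, had 0 past the threshold: Gnas averaged 139 and 135 untreated, H13, a signal peptide peptidase, 58.2 and 61.5, Blcap 10.6 and 11.4, and Mcts2 4.93 and 5.15.

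Of 13 tested immune, endothelial and matrix genes of the window, 2 were higher and 11 lower across both treatments, where 44.0% of all loci were higher, with a median log2 fold change of -0.13 against -0.01 for all loci. The median was -0.24 untreated (3 higher, 10 lower) and -0.05 on metformin (4 higher, 9 lower). One passed the threshold, the higher Sulf2 (0.516% of all loci did), and 4 had an unadjusted p under 0.05 (6.2% of all loci did). This list too was drawn up with earlier results of these data known, so these shares are descriptions only. Sdc4, a heparan sulfate proteoglycan and thus of the kind of molecule that Sulf2 acts on, measured 121, 436, 181 and 167 FPKM in untreated wild-type livers, with 1 mouse far above the rest. It measured 120, 201, 152, 120 and 132 in untreated Ncoa5+/- livers, and averaged 170 ± 14 (SD, n = 3) and 133 ± 19 (SD, n = 5) on metformin. Its log2 fold change across both was -0.42 (SE 0.20, limma adjusted p = 0.802), and -0.24 without that high wild-type mouse, replicate 2. At 20 weeks it was the other way, at 221 in wild-type and 263 in Ncoa5+/- livers. Lbp, an acute-phase protein that binds bacterial lipopolysaccharide, measured 28.6, 38.0, 32.4 and 55.6 in untreated wild-type livers and 27.2 to 31.3 in untreated Ncoa5+/- livers (across both -0.36, SE 0.12, adjusted p = 0.396). Tgm2, a crosslinking transglutaminase, averaged 34.4 and 34.9. Wfdc2, a secreted whey-acidic-protein family member, averaged 11.9 ± 2.4 and 8.57 ± 2.5 untreated and 14.4 ± 2.5 and 10.4 ± 2.6 on metformin (-0.45, SE 0.15, adjusted p = 0.425). At 20 weeks 5 of the 7 members of this list that could be tested were higher.

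Metformin moved no member past the threshold in either genotype, and no other locus (0%). In Ncoa5+/- livers 17 of 237 members had an unadjusted p under 0.05 (7.17% against 8.83% of all loci), and in wild-type livers 27 (11.4% against 9.35%). Groups did not overlap for 3 members in Ncoa5+/- livers (1.27% against 1.57%) and for 25 in wild-type livers (10.5% against 8.33%), 7 higher and 18 lower, where 500 loci of the whole table were higher and 453 lower. Both comparisons for Sulf2 use groups already given above: its log2 fold change with metformin was -0.86 (SE 0.30, limma adjusted p = 0.383) in wild-type and -0.56 (SE 0.25, adjusted p = 0.55) in Ncoa5+/- livers. The pseudogene Gm14148 had the smallest p of all loci in wild-type livers, averaging 3.96 ± 0.41 (SD, n = 4) FPKM untreated and 1.42 ± 0.35 (SD, n = 3) on metformin without overlap, and still missed the threshold (-1.04, SE 0.17, adjusted p = 0.155). In Ncoa5+/- livers it averaged 3.23 and 2.04 (-0.50, SE 0.14, adjusted p = 0.387). Pigt, a subunit of the GPI transamidase, averaged 23.0 ± 1.1 (SD, n = 5) untreated and 18.5 ± 2.6 (SD, n = 5) on metformin in Ncoa5+/- livers (-0.30, SE 0.08, adjusted p = 0.387). Both were picked out for their values. The interaction of genotype and metformin was called for 0 members and 0 loci (0%), with 6 members at an unadjusted p under 0.05 (2.53% against 2.79%).

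The authors' deposited tables give 2 comparisons of these loci. In the authors' deposited table at 20 weeks 2 of 281 members were marked significant (0.712%, against 2.1% of 13975 loci): Ttpal, with a log2 ratio, Ncoa5+/- over wild type, of 0.76 (q = 0.0265), and 2900097C17Rik, at -1.45 (q = 0.00751). In the limma fit Ttpal averaged 3.85 ± 0.57 in wild-type and 6.57 ± 3.7 FPKM in Ncoa5+/- livers (SD, n = 4 each) and 2900097C17Rik 2.81 ± 2.3 and 0.894 ± 0.41, with adjusted p = 0.603 for both. The authors' deposited table of metformin in Ncoa5+/- mice marked 0 of 288 members, against 1.22% of 14159 loci.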

How the data were processed

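Liver RNA of 25 mice was sequenced and processed by the authors with Trimmomatic 0.33, TopHat2, Cufflinks and Cuffnorm on GRCm38.p5, per the submitters' processing notes; strandedness is not given in the sources used here. The deposited values are FPKM per locus, normalised by the authors within each cohort, and the authors' comparison tables hold log2 ratios and p-values with q-values. Here log2(FPKM + 1) was tested with limma 3.58.1 (R 4.3.3; trend) over all loci averaging at least 1 FPKM in a cohort, in a 2-group fit at 20 weeks and a 4-group fit at 39 weeks, with Benjamini-Hochberg adjustment and a threshold of 0.05. Loci at 0 in every mouse of a group, yet present throughout another group that averaged 1 FPKM or more (15 and 14, no members), were left out as failed estimates. The tests were run first on simulated data. The window, role lists and tests were chosen with earlier results of these data known. Named were the 6 nearest tested members, called members, the 5 smallest p per genotype comparison, and of each role list the 3 most abundant members and the 2 smallest p. Fold changes understate the change of low loci. Listed spans are of overlapping transcript bundles; gene coordinates are from GENCODE M21, promoters from RefSeq. Alternatives were other pseudocounts, filters, scalings, weights and sets of libraries.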

Additional observations from a re-analysis of the deposited data

Results flagged for a closer look

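Of 199 sets of 4 or 5 mice, 21 held a mouse farther from the others than Dixon's 95% limit. The sets cover 41 members, and some of them are given only in this section. Some members were named because their values stood out, so the count cannot be set against a chance rate. Short or repeated loci gave the widest gaps. Gm25881, a small nuclear RNA inside Hnf4a, was 39651 FPKM in metformin Ncoa5+/- replicate 1 and 0 in the other 16 mice of 39 weeks, and 14.7 in wild-type replicate 1 at 20 weeks against 0 in the rest of its group. Gm14295, of the distal zinc-finger cluster, was 19.0 in untreated wild-type replicate 4 at 39 weeks against 1.05 for the next mouse, 2.03 in wild-type replicate 1 and 4.01 in Ncoa5+/- replicate 2 at 20 weeks. Wfdc15b was 5.12 in untreated Ncoa5+/- replicate 2 against 1.68 for the next mouse.

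At 20 weeks Ncoa5+/- replicate 1 was high for Arfgef2 (6.33 FPKM), Slc13a3 (5.38) and Slc9a8 (9.32), Ncoa5+/- replicate 4 for Cst3 (193.8) and Pltp (50.3), and wild-type replicate 2 for Fkbp1a (28.9). At 39 weeks metformin Ncoa5+/- replicate 4 was high for Hnf4aos (13.4), Lbp (31.8) and Pcif1 (18.9), and replicate 1 was high for Slc9a8 (11.0) and low for Mcts2 (4.33). Untreated Ncoa5+/- replicate 5 was low for Hnf4a (106.0) and replicate 2 for Ttpal (3.37). Untreated wild-type replicate 2 was low for Pcif1 (12.8) and replicate 4 for Slc13a3 (3.41).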

How the results depend on the processing

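No paired analysis was possible because replicate numbers follow accession order and tie no mice across groups. Over 50 pairs of a gene and a comparison, 1136 refits kept the direction and the side of the threshold, 17 lost the call, 2 gained one and 1 reversed. Only Sulf2 across both treatments was called to begin with, so only that pair could lose a call. All 17 losses were its own: 13 of 17 fits that leave out 1 mouse and 4 of 10 others. The Sulf2 call across both treatments was lost with a pseudocount of 5 FPKM (limma adjusted p = 0.0947), no filter on low values (0.0905) and array weights (0.101). Under these settings 0 members were called, against 52, 67 and 61 of all loci, where the main fit called 59. With single mice left out the count of members ran from 0 to 1, against 45 to 68 of all loci. Without metformin Ncoa5+/- replicate 4 the 1 call was Hnf4aos. Without the libraries over 70% it was Tshz2, against 51 of all loci. Sulf2 at 20 weeks ran from -0.26 to 0.014 with single mice left out, turning positive without Ncoa5+/- replicate 4. Without wild-type replicates 3 and 4 at 20 weeks 1 member was called, against 5 of all loci. It was the short RNA Gm23134, at 0 in all Ncoa5+/- mice and also in the left-out wild-type replicates 3 and 4. Wild-type replicates 1 and 2 measured 82.3 and 61.5 FPKM, and a listed 0 can be a failed estimate. The median absolute log2 fold changes of the members (20 weeks, then 39 weeks untreated, metformin and both) were 0.0944, 0.0608, 0.0467 and 0.0412 with a pseudocount of 5. They were 0.0710, 0.0489, 0.0451 and 0.0328 with no filter, where the signed medians were 0 untreated and -0.0013 across both. Array weights gave 0.2246 at 20 weeks. Such settings act on every locus, and the medians over all loci under them are not given here. These values therefore do not compare the members with the genome. With single mice left out the signed median ran from -0.0101 to 0.0201 at 20 weeks (-0.0229 to 0.0474 under the other settings), from -0.0341 to -0.011 untreated at 39 weeks and from -0.0173 to 0.008 on metformin, and the absolute median on metformin from 0.0741 to 0.1024. Among all loci, a fit of the 2 compared groups alone called 11 untreated (30 in the 4-group fit) and 6 on metformin (18); single mice left out gave 18 to 27 and 4 to 19, and failed estimates kept at 0 gave 13 at 20 weeks (0 without them) and 31 on metformin, a pseudocount of 5 gave 10 on metformin, and 20 weeks without wild-type replicate 4 gave 4. Single mice left out also moved the fold changes across both treatments of Pcif1 (-0.14 to -0.05), Zfp335os (0.05 to 0.20), Cst3 (-0.11 to -0.03), Rbm39 (-0.15 to -0.07), Srsf6 (0.03 to 0.10), Mcts2 (0.02 to 0.10) and E2f1 (0.06 to 0.12) by over 1.5 times; none passed the threshold. FPKM without counts gives no depth limit per locus.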

Other observations

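Some loci of the window were listed very unevenly. Mir6340, a microRNA locus, was at 0 in 9 of 17 mice of 39 weeks, among them all 4 untreated wild-type mice, and between 1643 and 6580 FPKM in the other 8. At 20 weeks it averaged 14.9 FPKM in wild-type and 6.47 in Ncoa5+/- livers. C330013J21Rik, which RefSeq lists as the zinc-finger gene Zfp972, measured 18.4 and 17.9 FPKM in untreated Ncoa5+/- replicates 1 and 2 and 0.94 to 2.78 in all other mice of 39 weeks.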
